A study of Rattus norvegicus with 30 samples.

Results

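The comparison described here asked whether the response of lung CD31-positive cells to Glenn surgery depended on vitamin A intake. It is a difference of differences: the change from sham to Glenn surgery on a diet with excess vitamin A, minus the same change on a vitamin A deficient diet. A positive value means that a gene went further up, or less far down, after Glenn surgery on the excess diet than on the deficient diet. The members were chosen by surgery and diet alone, and are 20 of the 30 libraries of the series, with 5 libraries in each of 4 groups: sham surgery and Glenn surgery on the deficient diet, and sham surgery and Glenn surgery on the excess diet. The remaining 10 libraries came from rats on the control diet and entered the fit only to steady the estimate of spread, except where they are named below.

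All groups consisted of wild-type rats, and cells were taken 3 weeks after the operation. Their strain and age were not given in the sources used here. CD31, the product of Pecam1, is a surface protein of endothelial cells, and the lung cells were sorted with microbeads for it, so each library is a bulk RNA profile of whatever the sort retained. The diets were given after the operation. Replicates carry a number in the labels, and no label says that each came from a separate animal, so the p-values measure the spread between these libraries. Judged by the Y-linked gene Ddx3y, each group held both sexes, so a group did not come from a single animal. There were 3 male and 2 female libraries in Glenn excess, and 2 male and 3 female libraries in each other group.

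In the Glenn operation, a superior cavopulmonary anastomosis, venous blood from the upper body is led straight into the pulmonary artery, so that the lung on that side no longer receives blood that has just left the liver. Hepatic venous blood carries BMP9 and BMP10, ligands of the ALK1 receptor on endothelial cells, and the liver is also the main store of vitamin A and the source of its plasma carrier. Cells convert vitamin A to retinoic acid, which binds RAR and RXR nuclear receptors and switches on target genes, among them the Cyp26 enzymes that degrade it.

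Library size ran from 22 to 50.5 M estimated counts (M for 1000000 counts, median 39.8 M), with 17146 to 18275 genes detected by 1 count or more. Spearman correlations between libraries of the same group were 0.981 to 0.992 over 40 pairs, and the counts of such pairs differed by far more than sampling noise (chi-square per degree of freedom 20.6 to 123). The library names fall into 2 number ranges, called here series A and series B, and these are not balanced. The sham excess group held 5 libraries of series A and 0 of series B, the Glenn excess group 2 and 3, the sham deficient group 2 and 3, and the Glenn deficient group 3 and 2. The series therefore entered the model as an additive term. The labels do not say what separates the 2 ranges. In the 20 libraries the MHC class I gene RT1-CE16 split with them, at 21.9 to 44.4 CPM in series A and 436 to 949 CPM in series B. On the control diet both levels occurred within series A, with 27.8 CPM in sham replicate 1 and 673 CPM in sham replicate 3. What the series term stands for was not tested. All 10 endothelial markers examined were present. Their sums were 9480 to 11700 CPM (counts per 1000000 after scaling) in sham deficient and 8030 to 9220 CPM in Glenn deficient libraries. On the excess diet they were 9920 to 11100 CPM after sham and 7690 to 9770 CPM after Glenn surgery. The sums were thus lower after Glenn surgery on both diets, without overlap. The 9 alveolar type 2 cell markers, among them the surfactant genes Sftpc and Sftpb, were also present, with sums of 37900 to 59100 CPM in sham deficient, 26800 to 35700 CPM in Glenn deficient, 39900 to 57100 CPM in sham excess and 27900 to 43300 CPM in Glenn excess libraries. In a bulk sample, fewer cells of a type and less RNA per cell cannot be told apart.

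Of 16171 genes tested, 0 (0%) had a Glenn effect that differed between the excess and the deficient diet at an adjusted p under 0.05 (edgeR quasi-likelihood test, Benjamini-Hochberg adjustment). The smallest adjusted p was 0.5, shared by 13 genes. At an unadjusted p under 0.05 there were 686 genes (4.24% of those tested), 387 with a positive difference (2.39%) and 299 with a negative one (1.85%), where a uniform distribution of p-values would give 809. DESeq2 called 1 gene, Maob, and limma called 0, with 790 and 890 genes at an unadjusted p under 0.05.

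The surgery itself changed many genes on either diet. Glenn surgery changed 3549 genes (21.9%) on the excess diet, 1868 upward and 1681 downward, and 4423 genes (27.4%) on the deficient diet, 2215 upward and 2208 downward (edgeR, adjusted p under 0.05). The 2686 genes called on both diets made up 75.7% of the excess calls and 60.7% of the deficient calls. Of these, 1423 rose on both diets, 1261 fell on both, and 2 went in opposite directions, namely Maob and Fcgr2al1. A further 863 genes were called on the excess diet only, and 808 of them had the same sign on the deficient diet. Likewise, 1737 were called on the deficient diet only, and 1620 of them had the same sign on the excess diet. A call on a single diet is not a difference between diets, and the test of that difference called 0 genes.

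Across the 13487 genes that averaged 1 CPM or more, the log2 changes after Glenn surgery on the 2 diets had a Pearson correlation of 0.88 (0.71 over all genes tested). Genes are not independent replicates, and both changes come from 1 model with a shared spread and series term. The data also bound how large a difference could have been missed. For the 9614 genes that averaged 10 CPM or more, the median standard error of the difference was 0.15 on the log2 scale and the median half-width of its 95% interval was 0.31. In 94.1% of these genes the whole interval lay within a 2-fold difference in either direction. Over all genes tested this share was 66.5%, so for weakly expressed genes a 2-fold difference between diets was often not resolvable.

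**Figure D1:**
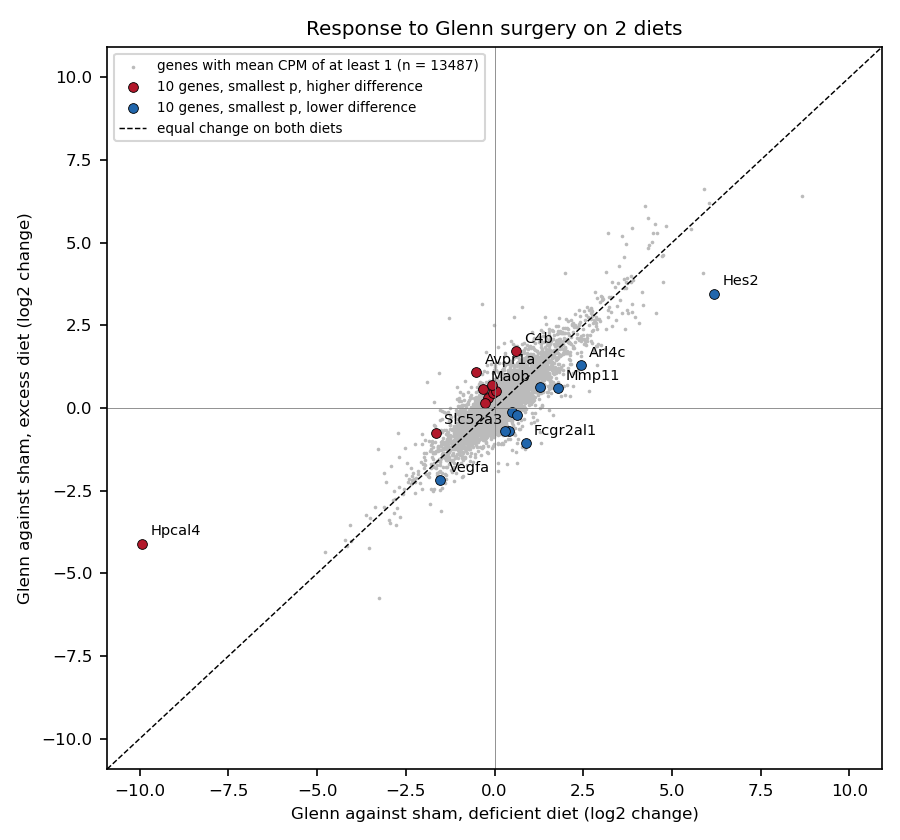
Log2 change from sham to Glenn surgery on the deficient diet (horizontal axis) and on the excess diet (vertical axis), 5 libraries a group, for 13487 genes that averaged 1 CPM or more. Most points lie along the dashed line of equal change, and the coloured points are the 20 genes with the smallest p for the difference, none of which passed the adjusted threshold. The position of Hpcal4, with 0 counts in 1 group, is not a measured fold.

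The control diet offered a way to define the surgical response in libraries outside the comparison. On that diet Glenn surgery changed 24.9% of genes, 616 of them upward and 377 downward by at least 2-fold. The 616 raised genes had a median log2 change of 1.71 on the excess diet and 1.68 on the deficient diet. Their median difference was -0.00, with 49.7% positive, against a median of 0.00 and 50.9% positive over all genes tested, and 8.12% had an unadjusted p under 0.05. The 377 lowered genes had medians of -1.19 on the excess diet and -1.31 on the deficient diet. Their median difference was 0.12 with 64.7% positive, and 10.6% had an unadjusted p under 0.05, where 4.24% of all genes did. Those with such a p-value were 29 with a positive and 11 with a negative difference, against 20 and 30 among the 616 raised genes. The mean level of the lowered genes per library overlapped between the Glenn groups: 3.40 to 3.55 for the deficient diet, 3.45 to 3.70 for the excess diet, as mean log2(CPM + 1). Over all 993 genes the changes on the 2 diets correlated at 0.92 and 969 had the same sign. A further 1739 genes were called lower on the control diet by less than 2-fold. Of these, 61.7% had a positive difference, and at an unadjusted p under 0.05 there were 92 positive and 20 negative. The 1291 genes called higher by less than 2-fold were 45% positive, with 33 positive and 39 negative at that level.

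The 20 genes named next have the smallest p-values for the difference, 10 in each direction, and were picked for that, so their values describe the edge of the distribution and support nothing by themselves. Glenn surgery changed 16 of them on the excess diet and 13 on the deficient diet at an adjusted p under 0.05. In 11 the fitted changes on the 2 diets had opposite signs. All 20 kept the sign of the difference in every alternative fit and with any 1 of the 20 libraries left out. Those fits reuse the libraries by which the genes were picked, so the kept sign adds no support.

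Maob, the mitochondrial monoamine oxidase B that breaks down dopamine and other amines, led the positive side. Its levels were 386, 333, 348, 318 and 454 CPM in sham deficient libraries and 322, 277, 305, 276 and 304 CPM in Glenn deficient libraries. They were 263, 330, 314, 246 and 321 CPM in sham excess and 524, 439, 360, 345 and 408 CPM in Glenn excess libraries. On the excess diet every Glenn library stood above every sham library, while on the deficient diet the groups overlapped at a lower Glenn level. Maob thus rose 1.48-fold on the excess diet (log2 0.56, adjusted p = 0.00188) and fell 1.26-fold on the deficient diet (log2 -0.34, adjusted p = 0.0362), and on the control diet it fell by 0.42 (log2, adjusted p = 0.00966). The difference was 0.90 (SE 0.18, 95% interval 0.53 to 1.28, unadjusted p = 3.43e-05, adjusted p = 0.5 in edgeR). DESeq2 gave the same difference of 0.90 an adjusted p of 0.0337, the only call of any fit.

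Several other genes on the positive side code for enzymes and carriers. Xdh, the xanthine dehydrogenase that makes uric acid from purines, ranged from 185 to 234 CPM in sham excess libraries and from 247 to 458 CPM in Glenn excess libraries, without overlap. On the deficient diet it ranged from 207 to 371 CPM after sham and from 247 to 306 CPM after Glenn surgery. It rose on the excess diet (log2 0.71, adjusted p = 0.000334), the value on the deficient diet was -0.08, and the difference was 0.79 (95% interval 0.39 to 1.19, unadjusted p = 0.000345).

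Slc52a3, a riboflavin transporter, fell on both diets. Its levels in sham deficient libraries were 23.9, 28.7, 25.2, 28.7 and 25.9 CPM, and in Glenn deficient libraries 10.4, 10.2, 8.15, 6.4 and 8.69 CPM. In sham excess libraries they were 26.3, 22.6, 31.4, 22.9 and 24.2 CPM, and in Glenn excess libraries 17, 16, 10.5, 12.8 and 12.2 CPM. Sham levels overlapped between the diets, and every Glenn excess library stood above every Glenn deficient one, though the nearest pair was almost equal. The fall was 1.68-fold on the excess diet (log2 -0.75) and 3.17-fold on the deficient diet (log2 -1.66), and on the control diet, at log2 -1.60, it was close to the deficient value. The difference was 0.92 (SE 0.22, 95% interval 0.46 to 1.37, unadjusted p = 0.000282).

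C4b, a complement component, ranged from 72 to 127 CPM in sham excess libraries and from 213 to 368 CPM in Glenn excess libraries. The sham deficient libraries were more spread, at 224, 343, 116, 175 and 146 CPM, and the Glenn deficient libraries ranged from 238 to 373 CPM. It rose on both diets, by 1.71 on the excess and 0.60 on the deficient diet (log2, adjusted p = 3.35e-07 and 0.0148), and the difference was 1.12 (95% interval 0.55 to 1.68, unadjusted p = 0.000395). Glenn levels overlapped between the diets, and the sham groups differed: C4b was lower by 1.13 in sham excess than in sham deficient libraries (log2, adjusted p = 0.0375). C4b also followed the library series (log2 -0.59 in series B, adjusted p = 0.0377), its difference was 0.73 without the series term and 0.84 without sham deficient replicate 2, and reads of C4b and its near-identical neighbour C4a may be shared out imprecisely.

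Avpr1a, a vasopressin receptor, had a median of 12.7 CPM in sham excess and 21.9 CPM in Glenn excess libraries, against 11.8 and 9.42 CPM on the deficient diet, with overlapping groups on both diets. Its difference was 1.61 (95% interval 0.80 to 2.41, unadjusted p = 0.000353). Hpcal4, a neuronal-type calcium sensor, was a gene of a few CPM after sham surgery that was nearly lost after Glenn surgery on both diets. It had 0 counts in all 5 Glenn deficient libraries, which sets it at least 133-fold lower than in sham deficient libraries when 3 counts over the group are taken as the limit of detection. In the excess groups it had 537 counts after sham and 23 after Glenn surgery. With 1 group at 0, the size of its fitted difference cannot be read as a fold.

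The remaining positive genes had smaller differences. Prss23 (a secreted serine protease), Cab39l (a scaffold of the LKB1 kinase), St3gal4 (a sialyltransferase) and Cyb561 (a transmembrane electron carrier) had differences of 0.50, 0.50, 0.49 and 0.41, with standard errors of 0.10 to 0.12. Prss23, Cab39l and St3gal4 rose on the excess diet and had no called change on the deficient diet. Cyb561 fell on the deficient diet (log2 -0.27) and had no called change on the excess diet. Among these, St3gal4 also followed the library series (log2 -0.35, adjusted p = 0.00532), and its difference was 0.22 without the series term (unadjusted p = 0.159).

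On the negative side, Vegfa, the main endothelial growth factor, had the smallest p. Its levels were 1223, 1139, 1103, 1377 and 1096 CPM in sham deficient and 1655, 1501, 1587, 1540 and 1463 CPM in sham excess libraries. After Glenn surgery they were 423, 386, 362, 467 and 387 CPM on the deficient diet and 289, 358, 425, 409 and 323 CPM on the excess diet. The sham groups did not overlap, the excess diet being higher, whereas the Glenn groups did. Vegfa fell 4.55-fold on the excess diet (log2 -2.19, adjusted p = 7.54e-13) and 2.89-fold on the deficient diet (log2 -1.53, adjusted p = 1.51e-11), with a value of -1.61 on the control diet. The difference was -0.66 (SE 0.17, 95% interval -0.99 to -0.32, unadjusted p = 0.000453, adjusted p = 0.523), and the sham groups differed by 0.46 (log2, unadjusted p = 0.000511, adjusted p = 0.353).

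**Figure D2:**
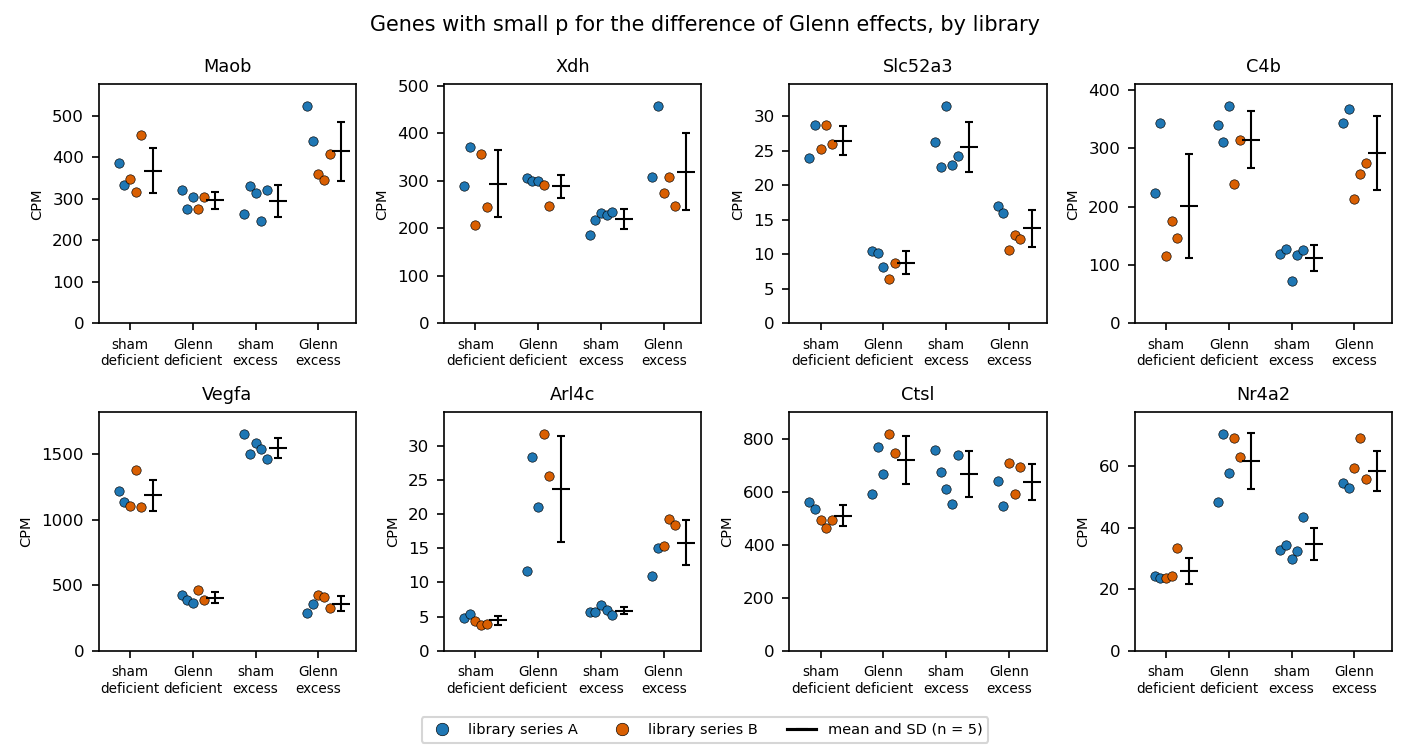
CPM of 8 genes among the 20 with the smallest p, by group, with 1 point a library coloured by library series and the mean and SD of 5 libraries. Vegfa falls from between 1096 and 1655 CPM after sham to between 289 and 467 CPM after Glenn surgery, and Maob rises on the excess diet and falls on the deficient diet, while 0 of these differences passed the adjusted threshold in edgeR.

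Arl4c, a small GTPase, ranged from 3.8 to 5.45 CPM in sham deficient and from 5.29 to 6.65 CPM in sham excess libraries. After Glenn surgery it was 11.6, 28.3, 21, 31.7 and 25.5 CPM on the deficient diet and 11, 15, 15.3, 19.3 and 18.4 CPM on the excess diet. It rose on both diets, 5.37-fold on the deficient and 2.46-fold on the excess diet, with overlap between the Glenn groups because of 1 low deficient library. The difference was -1.13 (95% interval -1.73 to -0.53, unadjusted p = 0.000601).

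Nr4a2, an immediate early nuclear receptor that can pair with RXR, also rose on both diets. Its medians were 24.4 CPM in sham deficient, 63.1 CPM in Glenn deficient, 32.9 CPM in sham excess and 55.8 CPM in Glenn excess libraries. The rise was 2.45-fold on the deficient and 1.56-fold on the excess diet, with a difference of -0.65 (95% interval -1.03 to -0.27, unadjusted p = 0.00147). As in Vegfa, the sham level was higher on the excess diet (log2 0.53, unadjusted p = 0.000404, adjusted p = 0.349).

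Ctsl, the lysosomal protease cathepsin L, ranged from 466 to 564 CPM in sham deficient and from 592 to 820 CPM in Glenn deficient libraries, without overlap. On the excess diet the ranges were 554 to 758 CPM and 547 to 709 CPM, almost the same. It rose on the deficient diet (log2 0.50, adjusted p = 0.000625), and the difference was -0.61 (95% interval -0.95 to -0.27, unadjusted p = 0.000878). Mmp11, a matrix protease also called stromelysin-3, rose on the deficient diet (log2 1.78, adjusted p = 2.23e-07), with a value of 0.60 on the excess diet and a difference of -1.18 (unadjusted p = 0.00128), which was -0.77 without the series term.

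Hes2, a transcriptional repressor of the Hairy family, rose on both diets from very low levels. Sham deficient libraries had 0 to 0.0962 CPM and sham excess libraries 0.103 to 0.248 CPM, against 1.52 to 5.21 and 1.12 to 3.26 CPM after Glenn surgery. The sham deficient level was near the limit of detection in each library, so its fitted difference of -2.74 rests on few counts. Rasgrp2, an activator of the Rap1 GTPase in platelets and endothelium, and Zgrf1, a DNA helicase, fell on the excess diet, by 0.70 each (log2, adjusted p = 0.0108 and 0.0182). Their values on the deficient diet were 0.28 and 0.40, and the differences were -0.99 and -1.10. Fcgr2al1 (ENSRNOG00000046663, 1 of 2 entries of that name), an Fc receptor-like gene, had a difference of -1.95 but followed the library series (log2 1.16, adjusted p = 0.0199), and without the series term it was -0.74 (unadjusted p = 0.191). Actg1, cytoplasmic gamma-actin, had a difference of -0.85, which was -0.43 in series A alone, and both genes have close relatives with which reads may be shared.

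Gene lists were then read against all genes tested, of which 4.24% had an unadjusted p under 0.05 for the difference and whose median difference was 0.00. Among the 20 pathway lists, those without any member at an unadjusted p under 0.05 were retinoid uptake, retinoic acid synthesis, retinoid receptors, Notch signalling, matrix, cholesterol synthesis, fatty acid handling, circadian clock and heat shock. Interferon-stimulated genes had the list median furthest from 0 and are described first.

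**Figure D3:**
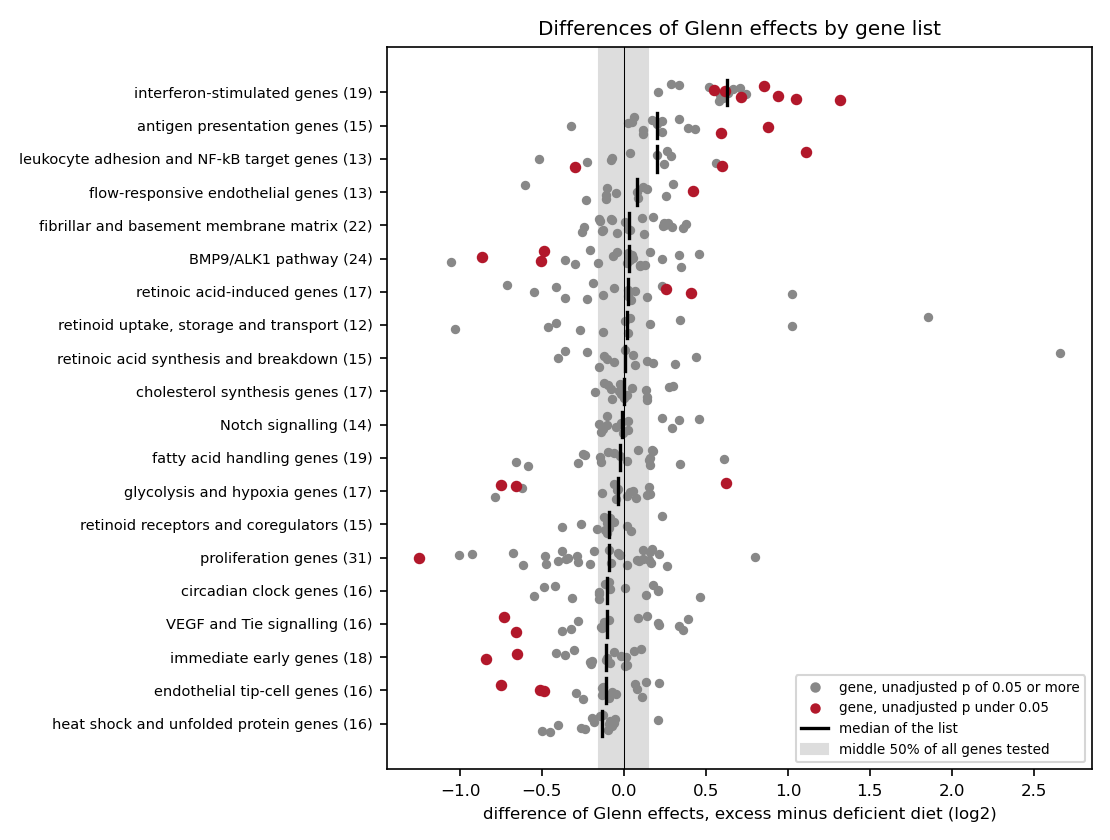
Difference of Glenn effects (log2, excess minus deficient) of each tested member of 20 pathway lists, with list medians as black bars, members at an unadjusted p under 0.05 in red, and the middle 50% of all genes tested as a grey band. The median of the interferon list, 0.63, lies outside the band, and those of the retinoid lists lie inside it.

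Interferon-stimulated genes are antiviral genes that interferons switch on together. All 19 tested members had a positive difference, with a median of 0.63, and 7 of 19 (36.8%) had an unadjusted p under 0.05, against 2.39% of all genes in that direction. Among the 7 were Mx1, Mx2, Ifit2, Ifit3 and Gbp5. On the deficient diet 0 members rose and 7 fell after Glenn surgery, and on the excess diet 4 rose and 1 fell. Over all genes tested, 13.7% rose and 13.7% fell on the deficient diet, and 11.6% rose and 10.4% fell on the excess diet, and the counts of the other lists are read against these shares. None of the 19 passed the adjusted threshold for the difference, the smallest adjusted p being 0.953.

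The size of this pattern changed both with 1 library and with the series term. Mx1, which codes for an antiviral GTPase, was 134, 327, 92.3, 48.5 and 67.9 CPM in sham deficient libraries and 71.7, 111, 33.5, 60.6 and 44.4 CPM in Glenn deficient libraries. In sham excess it was 88.7, 65.2, 39.6, 52.4 and 59.8 CPM, and in Glenn excess 58.1, 73.5, 43.9, 26.1 and 51.4 CPM. Sham deficient replicate 2 stood far above every other library, and the remaining values overlapped across the 4 groups. That library was the highest of its group in 19 of 19 genes and the highest of all 20 libraries in 15 of 19.

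Mx2, a relative of Mx1, was 347, 414, 268, 163 and 237 CPM in sham deficient libraries, and no library of the other 3 groups was above 216 CPM. The mean of the list per library, as log2(CPM + 1), was 6.88, 7.56, 6.10, 5.97 and 6.03 in sham deficient and 6.47, 6.84, 5.95, 6.32 and 6.01 in Glenn deficient libraries. In sham excess libraries it was 6.71, 6.36, 5.66, 6.22 and 6.27, and in Glenn excess libraries 6.63, 6.33, 5.98, 5.76 and 6.07.

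Without sham deficient replicate 2, the median difference fell from 0.63 to 0.24, with 18 of 19 members still positive and 1, Mx2, at an unadjusted p under 0.05. Then 2 members fell and 2 rose on the deficient diet. The list also went with the library series: all 19 members were lower in series B, 8 of them at an adjusted p under 0.05 (1.64% of all genes followed the series), with a median of -0.74. Without the series term the median difference was 0.23 with 16 of 19 positive and 0 at an unadjusted p under 0.05. Within series A alone it was 1.05 with 18 of 19 positive and 12 at an unadjusted p under 0.05, where the sham deficient group holds only 2 libraries, replicate 2 among them. Without sham excess replicate 1, the number of members at an unadjusted p under 0.05 was 14. Why these libraries were high was not tested.

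**Figure D4:**
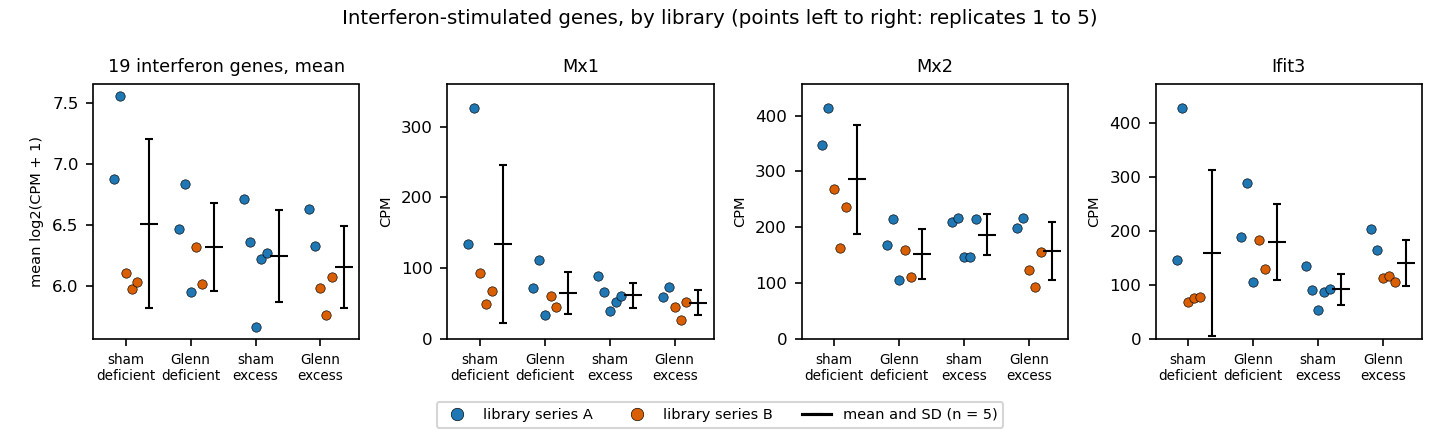
Mean log2(CPM + 1) of 19 interferon-stimulated genes and CPM of Mx1, Mx2 and Ifit3 by group, with 1 point a library in order of replicate number, coloured by library series, and the mean and SD of 5 libraries. Sham deficient replicate 2 lies above all other libraries in each panel, and series A libraries tend to lie above those of series B.

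Some members of the list hold the same short promoter sequence, which the comparison did not use. Interferon-responsive promoters carry repeats of the letters TTTCNNTTTC, where N is any base, the core of the interferon-stimulated response element. These letters were searched on both strands in windows from 250 bases before to 50 bases after the annotated start (RefSeq, GRCr8). Of the 19 genes, 13 had such a window and 9 of 13 held a match (Mx1 was among those without one), against 3.92% of 33469 windows of all genes. The last 100 bases before the start are shown for 4 of them, in lower case with the match in capitals, as an example of the shared letters. A match is a description of the letters and not evidence of binding in these cells. The windows lie at chr1:241527226-241527325 (Ifit3, plus strand), chr2:233910899-233910998 (Gbp5, plus strand), chr1:205800024-205800123 (Irf7, minus strand) and chr12:41330366-41330465 (Oas1a, plus strand, with 2 overlapping matches on the opposite strand).
Ifit3: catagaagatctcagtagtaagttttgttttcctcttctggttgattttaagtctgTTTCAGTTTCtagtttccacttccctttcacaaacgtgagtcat
Gbp5: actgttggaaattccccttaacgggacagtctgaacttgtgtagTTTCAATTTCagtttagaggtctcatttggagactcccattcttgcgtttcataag
Irf7: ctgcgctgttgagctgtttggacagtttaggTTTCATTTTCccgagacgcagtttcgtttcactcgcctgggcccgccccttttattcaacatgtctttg
Oas1a: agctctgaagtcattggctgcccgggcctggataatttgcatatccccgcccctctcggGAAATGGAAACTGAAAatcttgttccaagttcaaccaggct

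Antigen presentation genes, which interferon also induces, showed the same layout in a weaker form. Of 15 members, 14 had a positive difference, with a median of 0.20, and 2 had an unadjusted p under 0.05: Nlrc5, the activator of MHC class I genes (0.88), and Tap1, the peptide transporter (0.59). After Glenn surgery 11 of 15 fell on the deficient diet (13.7% of all genes) and 2 on the excess diet (10.4%). Without sham deficient replicate 2 the list median was 0.055, Nlrc5 0.45 and Tap1 0.35. Without the series term Nlrc5 was 0.38 (unadjusted p = 0.449) and Tap1 0.21 (unadjusted p = 0.523). Nlrc5 was 67.4, 103, 14.8, 21.9 and 33.5 CPM in sham deficient libraries, and the Glenn deficient libraries lay between 20.2 and 32.3 CPM, so its high sham values were again those of replicates 1 and 2. The list also holds MHC genes. In Glenn deficient libraries RT1-Bb was 50.35, 44.96 and 47.56 CPM in series A and 102.7 and 102.2 CPM in series B. RT1-Da overlapped there, at 149.7, 133.5 and 153.4 CPM in series A and 150 and 160 CPM in series B.

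Venous endothelial markers had positive differences in 8 of 8 members, with a median of 0.44, and 3 had an unadjusted p under 0.05. Ackr1, a chemokine-binding receptor of venules, was 49.7, 58.7, 51, 46.8 and 50.2 CPM in sham deficient and 61.8, 80.3, 49.8, 31 and 47.1 CPM in Glenn deficient libraries. It was 50.7, 39.9, 41.5, 45.9 and 36 CPM in sham excess and 112, 63, 47.5, 67.8 and 93.5 CPM in Glenn excess libraries. The Glenn libraries were spread on both diets, and on the excess diet 4 of 5 stood above every sham library. It rose on the excess diet (log2 1.07, adjusted p = 0.000388), the value on the deficient diet was -0.04, and the difference was 1.11 (95% interval 0.49 to 1.72, unadjusted p = 0.000996, adjusted p = 0.679).

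The other 2 were Vwf, the clotting factor carrier of endothelial granules, which fell on the deficient diet (log2 -0.72) with a difference of 0.60, and Vcam1, a leukocyte adhesion molecule, also with a difference of 0.60. Without the series term these were 0.24 for Vwf and 0.15 for Vcam1 (unadjusted p = 0.389 and 0.613), and Vcam1 was 0.095 in series A alone and 0.37 without Glenn deficient replicate 4. Within series A alone the median difference of the venous markers was 0.09, with 6 of 8 positive. Without Glenn deficient replicate 4 it was 0.27, again with 6 of 8 positive. Selp, another adhesion molecule, rose on both diets, by 1.54 on the excess and 0.97 on the deficient diet (log2). In contrast, the adhesion gene Icam1 had a negative difference (-0.30, unadjusted p = 0.049, and -0.20 without Glenn deficient replicate 4), so the leukocyte adhesion list did not move in 1 direction: 8 of 13 members were positive.

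Retinoid genes take up, convert or respond to vitamin A, and none of them passed the adjusted threshold for the difference. Receptors and coregulators had 12 of 15 members with a negative difference, with a median of -0.09, and 0 at an unadjusted p under 0.05. Rara, Rarb and Rarg, the retinoic acid receptors, fell after Glenn surgery on both diets. The falls were 0.43, 0.52 and 0.79 on the excess diet and 0.33, 0.57 and 0.67 on the deficient diet (log2, edgeR adjusted p under 0.05 in all 6 cases). Their differences were -0.10 (95% interval -0.44 to 0.24), 0.04 (-0.37 to 0.45) and -0.12 (-0.46 to 0.23). In this model, with its series term, all 3 intervals lay within a 2-fold difference in either direction.

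Cyp26b1, which degrades retinoic acid and is itself induced by it, differed by diet in both surgical groups and by surgery on both diets. It was 29.8, 82.7, 42.1, 43.3 and 33.7 CPM in sham deficient libraries and 144, 175, 118, 130 and 256 CPM in sham excess libraries. After Glenn surgery it was 16.2, 9.5, 21.8, 13 and 18.5 CPM on the deficient diet and 37.2, 36, 46.7, 43.4 and 45.5 CPM on the excess diet. Neither pair of surgical groups overlapped, and neither did the diets within a surgery. It fell 3.8-fold on the excess diet (adjusted p = 0.000935) and 2.96-fold on the deficient diet (adjusted p = 0.00166). The excess diet was higher by 1.79 after sham and by 1.43 after Glenn surgery (log2, unadjusted p = 0.000101 and 0.000581), though neither diet difference passed adjustment over all genes. The difference of Glenn effects was -0.36 with a wide interval, from -1.47 to 0.75.

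The other retinoic acid-induced genes gave narrower bounds. Dhrs3, a retinal reductase, ranged from 118 to 155 CPM in sham deficient, 69.3 to 87.8 CPM in Glenn deficient, 136 to 183 CPM in sham excess and 84.5 to 98.1 CPM in Glenn excess libraries. It fell on both diets, by 0.88 on the deficient diet and 0.74 on the excess diet (log2), without overlap of sham and Glenn libraries, and the difference was 0.14 (95% interval -0.12 to 0.40). Cyp26a1, another enzyme of the family, was low in all groups, at 1.03 to 7.39 CPM, and its groups overlapped on both diets, with a difference of -0.23 (95% interval -1.31 to 0.86).

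Of 17 tested members of the induced list, 9 had a positive difference, the median was 0.03 (-0.07 to 0.13 with 1 library left out), and 2 had an unadjusted p under 0.05, Tgm2 and Rai14. Tgm2, the tissue transglutaminase, was 968, 1022, 964, 1109 and 846 CPM in sham deficient and 1115, 1253, 1006, 755 and 842 CPM in Glenn deficient libraries. It was 1055, 1007, 1029, 1014 and 1201 CPM in sham excess and 1641, 1237, 805, 1106 and 1021 CPM in Glenn excess libraries, and sham and Glenn overlapped on both diets. Its difference of 0.41 (unadjusted p = 0.0269) was 0.11 without the series term, which it followed (log2 -0.37, adjusted p = 0.0393), and 0.24 without Glenn excess replicate 1. Rai14, an actin-binding protein named for its induction by retinoic acid, had a difference of 0.26 (unadjusted p = 0.0411), which was 0.0309 without the series term and 0.16 without Glenn excess replicate 1.

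**Figure D5:**
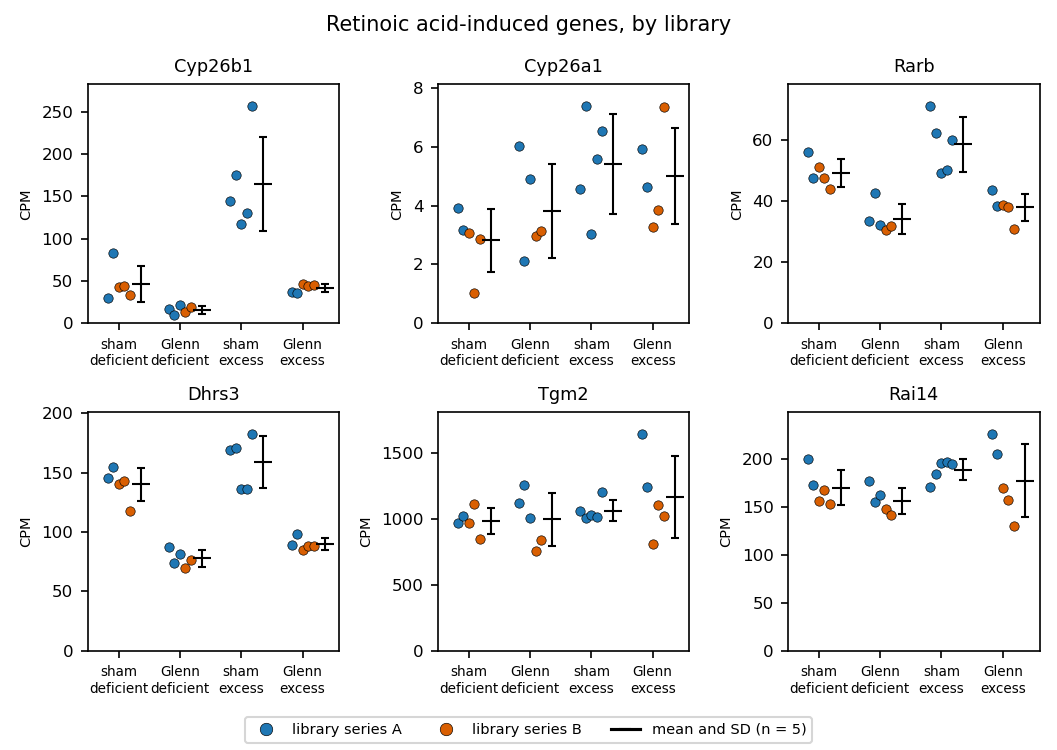
CPM of 6 retinoic acid-induced genes by group, with 1 point a library coloured by library series and the mean and SD of 5 libraries. Cyp26b1 is higher on the excess diet within each surgery and lower after Glenn surgery within each diet, and Dhrs3 and Rarb are lower after Glenn surgery on both diets.

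The best known binding site of the RAR and RXR pair is a direct repeat with a spacer of 5 bases, named DR5. It was searched by that name on both strands in the same RefSeq windows. Of 14 induced genes with a window, 2 held a match, Cyp26a1 and Rarb, against 0.382% of all windows. The Cyp26a1 window before the start (chr1:244883722-244883821 of GRCr8, plus strand) is printed because its repeat, in capitals, lies 92 to 76 bases before the start. Cyp26b1, which differed by diet in both surgical groups, was not among the 2 genes with a match. The absence of a match in the other windows says nothing of sites elsewhere.
Cyp26a1: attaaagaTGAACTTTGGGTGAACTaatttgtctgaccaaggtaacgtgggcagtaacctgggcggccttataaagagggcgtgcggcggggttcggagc

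Retinoic acid synthesis and breakdown genes (15 tested) and uptake, storage and transport genes (12 tested) had medians of 0.00 and 0.02 and 0 members at an unadjusted p under 0.05. Aldh1a2, which makes retinoic acid, had 43.9 to 52.2 CPM in sham excess and 28.3 to 102 CPM in Glenn excess libraries. Its difference of -0.12 had an interval from -0.90 to 0.66, it followed the library series (log2 0.97, adjusted p = 0.0152), and its sign turned without the series term, where the value was 0.70. Lpl, the lipase that also frees retinyl esters, fell on both diets (log2 -1.34 and -1.68), and Scarb1, a carotenoid and lipoprotein receptor, rose on both (1.80 and 1.76). Their differences were 0.34 (95% interval -0.27 to 0.95) and 0.04 (-0.37 to 0.44).

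Central members of the BMP9/ALK1 pathway, whose ligands are carried in hepatic venous blood, fell after Glenn surgery on both diets. Of 24 tested, 12 fell and 4 rose on the excess diet, and 10 fell and 3 rose on the deficient diet (10.4% and 11.6% of all genes fell and rose on the excess diet, 13.7% each on the deficient diet). Smad6, the feedback inhibitor of the pathway, was 942 to 1147 CPM in sham excess and 99.4 to 232 CPM in Glenn excess libraries, and 589 to 1064 CPM and 105 to 179 CPM on the deficient diet. It fell 6.76-fold and 7.04-fold, with a difference of 0.06 (95% interval -0.50 to 0.61). The ALK1 receptor gene Acvrl1, its co-receptor Eng and the target Id1 fell by 1.08, 1.25 and 1.27 on the excess diet and by 1.43, 1.35 and 1.30 on the deficient diet (log2, no overlap of sham and Glenn libraries). Their differences were 0.35 (95% interval -0.03 to 0.72, unadjusted p = 0.0672), 0.10 (-0.28 to 0.47) and 0.03 (-0.32 to 0.38). The small differences of Smad6, Eng and Id1 changed sign in some alternative fits.

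Within the same pathway 3 members had an unadjusted p under 0.05, each with a negative difference. Smad1, the signal transducer, rose by 1.61 on the excess and 2.12 on the deficient diet (log2), with a difference of -0.51 (unadjusted p = 0.00516). Smad7, another inhibitor, fell by 2.27 on the excess and 1.41 on the deficient diet, with a difference of -0.87 (unadjusted p = 0.0264). Atoh8, a target gene, fell on the excess diet (log2 -0.56), had a value of -0.08 on the deficient diet and a difference of -0.49 (unadjusted p = 0.0218). In series A alone Smad1 was -0.25 and Smad7 -0.51, without the series term they were -0.34 and -0.51, and Smad7 was -1.39 without Glenn excess replicate 1. The median of the whole list was 0.03 and 14 of 24 members were positive, and without Glenn excess replicate 1 the median was -0.0586.

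VEGF and Tie signalling genes (16 tested, median -0.11, or 0.0886 without Glenn excess replicate 1) had 2 members at an unadjusted p under 0.05, Vegfa and Vash1, both negative. Vash1, an inhibitor of angiogenesis that VEGF induces, was 16.9, 12.9, 18.1, 14.8 and 18.3 CPM in sham deficient and 139, 256, 252, 243 and 264 CPM in Glenn deficient libraries. It was 20.6, 21.2, 18.6, 16.9 and 17.8 CPM in sham excess and 168, 165, 183, 188 and 223 CPM in Glenn excess libraries. It rose 14.7-fold on the deficient and 8.83-fold on the excess diet, and 4 of 5 Glenn deficient libraries stood above every Glenn excess library. The difference was -0.73 (95% interval -1.23 to -0.23, unadjusted p = 0.00572).

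Endothelial tip-cell genes, which mark the leading cells of vascular sprouts, rose together on both diets: 12 of 16 on the excess and 14 of 16 on the deficient diet, with 0 falling on either (11.6% of all genes rose on the excess and 13.7% on the deficient diet). The median change was 0.99 on each diet. Apln and Angpt2, ligands made by tip cells, rose by 1.17 and 2.39 on the excess and by 1.42 and 2.48 on the deficient diet (log2). Their differences were -0.25 (95% interval -0.85 to 0.36) and -0.09 (-0.56 to 0.38). Adm, which codes for the vasodilator adrenomedullin, Nid2, a basement membrane protein, and Unc5b, a netrin receptor, had differences of -0.75, -0.49 and -0.51 at unadjusted p-values of 0.0137, 0.00856 and 0.0329. All 3 had the larger value on the deficient diet, and 11 of 16 members of the list were negative. In series A alone Adm was -0.48 and Unc5b -0.29.

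Proliferation genes rose after Glenn surgery in 10 of 31 members on the excess diet, where 11.6% of all genes rose, and in 20 of 31 on the deficient diet, where 13.7% did, with 0 falling on either. The difference itself had a median of -0.09 and 1 member at an unadjusted p under 0.05, the kinetochore motor gene Cenpe (-1.25, unadjusted p = 0.0479). Mki67, the standard marker of cycling cells, ranged from 4.69 to 9.18 CPM in sham excess and from 10.7 to 14 CPM in Glenn excess libraries. On the deficient diet the ranges were 4.86 to 10.1 CPM and 6.82 to 18.4 CPM. The difference of 0.26 had an interval from -0.74 to 1.27, which takes in a 2-fold difference.

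Immediate early genes rose in 8 of 18 members on the deficient and 4 of 18 on the excess diet (13.7% and 11.6% of all genes), with a median difference of -0.11 and 13 of 18 negative. Nr4a2 and Egr3, a growth factor-induced transcription factor (-0.84, unadjusted p = 0.0228, and -0.29 without the series term), were the 2 members at an unadjusted p under 0.05. Heat shock and unfolded protein genes had 15 of 16 negative differences, from -0.50 for Hspa1b, a stress-induced chaperone, upward, with a median of -0.14 and 0 at an unadjusted p under 0.05. Their mean log2(CPM + 1) was 8.11, 8.01, 8.08, 7.82 and 7.66 in sham excess libraries, all of series A, and 7.46 to 7.63 in sham deficient libraries. After Glenn surgery it was 7.45 to 7.81 on the deficient diet and 7.36 to 7.87 on the excess diet. Every sham excess library thus stood above every sham deficient one, while the Glenn groups overlapped. Without sham deficient replicate 1 the list median was -0.0517, and it was -0.25 without the series term. Glycolysis and hypoxia genes were mixed: Vegfa and Adm had negative differences, and Ndrg1, a stress-induced gene that rose on both diets, had a positive one (0.62, unadjusted p = 0.0201, and 0.33 in series A alone).

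Matrix genes rose in 15 of 22 members on the excess and 17 of 22 on the deficient diet (11.6% and 13.7% of all genes), with a median difference of 0.03, and in none did the difference reach an unadjusted p under 0.05. Flow-responsive endothelial genes had 1 such member, Edn1, the vasoconstrictor endothelin-1, which fell on both diets, by 0.65 on the excess and 1.08 on the deficient diet (log2, difference 0.42, unadjusted p = 0.0393). That difference was 0.0694 without the series term and 0.18 without sham deficient replicate 2. Rftn1, a lipid raft protein examined singly, ranged from 33.1 to 37.9 CPM in sham excess and from 46.8 to 63.3 CPM in Glenn excess libraries, without overlap. Its ranges on the deficient diet were 34.6 to 40.9 and 40.6 to 60.3 CPM. It rose on both diets, by 0.82 and 0.35 (log2), and the difference was 0.47 (95% interval 0.21 to 0.74, unadjusted p = 0.00116), or 0.29 without the series term. The endothelial genes Pecam1 and Cdh5 had differences of 0.23 (95% interval -0.18 to 0.64) and 0.03 (-0.27 to 0.33). With alveolar type 2 and macrophage marker levels as covariates, edgeR again called 0 genes for the difference, and 787 had an unadjusted p under 0.05.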

How the data were processed

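RNA of the sorted rat lung cells was prepared by PureLink kit, followed by SMART-Seq Ultra Low library construction, per the labels' protocols. Estimated counts for each gene were deposited in 1 table, and the submitters' processing notes name FastQC, Trim Galore, Picard, STAR and Salmon and the builds mRatBN7.2 and rn7. Roles, versions and strandedness are not given in the sources used here. Of the values, 13.6% were not whole, and how reads of near-identical genes were assigned is not given.

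The estimated counts were rounded, and 30562 genes were filtered with filterByExpr (minimum count 10, minimum total 15), which left 16171. All 30 libraries entered 1 edgeR 4.0.16 fit (R 4.3.3, TMM, glmQLFit with robust = TRUE, glmQLFTest) with 6 group means and the library series as terms. Benjamini-Hochberg adjustment ran over all tested genes, with 0.05 as threshold. SE is the log2 value divided by the square root of F. Intervals use the t distribution on the fitted degrees of freedom. DESeq2 1.42.0, limma 3.58.1 and other fits were alternatives, and the fit was tested on simulated data. Sex was read from Ddx3y (male above 10 CPM), for the numbers of male and female libraries and for 1 alternative.

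The members and lists were chosen with earlier results of these data known. Genes were named by rule: the 10 smallest p-values in each direction at an average of 1 CPM or more, preset genes, and up to 3 genes per pathway list with the smallest p. Other genes of the lists, and the lists' further examples, were chosen after their values were seen. The values of 1 list member are not reported here.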

Additional observations from a re-analysis of the deposited data

Results flagged for a closer look

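The 38 genes named for a small p-value or preset, the total counts and the mean of the interferon list were examined for outlying libraries. A library was marked when it stood far from the other 4 of its group by Dixon's ratio (its gap to the nearest library over the whole range of the group, critical value 0.71). Of 160 sets examined, 15 were marked, and chance marks about 8. Among the genes with the smallest p-values these were Xdh in Glenn deficient replicate 5 (247 CPM against 291 to 306, ratio 0.745), C4b in sham excess replicate 3 (72 against 117 to 127, 0.809), Actg1 in sham excess replicate 1 (38.4 against 23 to 25.3, 0.85) and Nr4a2 in sham deficient replicate 5 (33.3 against 23.6 to 24.4, 0.91). Rftn1 was low in sham deficient replicate 4 (34.6 against 39.1 to 40.9, 0.715).

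Replicate 1 of the Glenn groups was marked in several genes of the BMP9/ALK1 and VEGF lists. In Glenn deficient replicate 1, Vash1 was low (139 CPM against 243 to 264, ratio 0.833), and Eng (1048 against 756 to 801, 0.846) and Acvrl1 (795 against 562 to 611, 0.79) were high. In Glenn excess replicate 1, Smad6 (232 against 99.4 to 127, 0.793) and Eng (1330 against 749 to 908, 0.726) were high. Eng, Acvrl1 and Smad6 had their highest value in replicate 1 in both Glenn groups.

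The remaining marks were Id1 in sham excess replicate 5 (198 CPM against 228 to 236, ratio 0.771), Top2a in Glenn excess replicate 3 (17.7 against 8.49 to 10.5, 0.781) and Tgm2 in sham excess replicate 5 (1200.5 against 1007 to 1055, 0.753). Cyp26b1 was high in sham deficient replicate 2 (82.7 against 29.8 to 43.3, 0.746), the library with the high interferon genes, and Rarb in Glenn deficient replicate 2 (42.7 against 30.4 to 33.5, 0.749). No library was marked for total counts or for the mean of the interferon list, sham deficient replicate 2 included.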

How the results depend on the processing

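The count of genes whose Glenn effect differed stayed at 0 in 11 of 12 alternative fits and with each of the 20 libraries left out (range 0 to 0), and was 1 with DESeq2. Series A alone, with fewer samples, gave 2339 genes changed by Glenn surgery on the excess diet and 2666 genes changed by Glenn surgery on the deficient diet. With 1 library left out these ranged from 2869 to 3566 and from 3683 to 4520. Nothing in the labels pairs replicate numbers, and same-number deviations correlated at -0.195 to 0.279, with 12 of 30 over 0.1. Still, 10 of 20 libraries matched their own number best, and replicates 1 and 2 are series A in all 4 groups, so numbers and series overlap. A replicate block gave 0 calls, with a smallest adjusted p of 0.0611, and an interferon list median of 0.41 with 2 members at an unadjusted p under 0.05.

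Over the 38 named genes, the difference changed sign in 19 pairs of gene and alternative fit, and in 19 pairs of gene and left-out library. The changes between alternative fits are listed first. Without the series term these were Smad6 (-0.16), Eng (-0.12), Mki67 (-0.049), Rarb (-0.10) and Aldh1a2 (0.70), and in limma Smad6 (-0.19), Eng (-0.0435), Id1 (-0.0636) and Cdh5 (-0.00041). With the block they were Smad6 (-0.10), Eng (-0.0319), Id1 (-0.0034), Angpt2 (0.0814), Mki67 (-0.20), Rarb (-0.18), Aldh1a2 (0.20) and Cdh5 (-0.0266), and in series A alone Mki67 (-0.10) and Pecam1 (-0.14). With 1 library left out the ranges were -0.32 to 0.16 (Smad6), -0.11 to 0.17 (Eng), -0.052 to 0.14 (Id1), -0.19 to 0.0793 (Angpt2), -0.015 to 0.12 (Rarb), -0.41 to 0.0915 (Aldh1a2) and -0.0178 to 0.0948 (Cdh5). The cause was not tested. List medians were also compared with the SD, within groups, of the list's mean log2(CPM + 1) per library, which is not an error of the median. They moved by more than that SD in 50 of 444 pairs of list and alternative fit. With 1 library left out this held in 40 of 740 pairs. With 5 libraries a group and the sham excess group in series A only, the series term rests on the other groups, and small differences in weakly expressed genes were not resolvable.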

Other observations

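Markers of cells other than endothelium were also compared, as a record of what the sort retained. Airway epithelial markers had 6 of 6 positive differences with a median of 0.95 (0.44 without sham deficient replicate 1, 1.34 without Glenn excess replicate 2), and 2 had an unadjusted p under 0.05, the club cell genes Scgb3a2 (1.37) and Cyp2f4 (1.64). Scgb3a2 was 26, 27, 9.79, 11.7 and 11.7 CPM in sham deficient libraries, and Cyp2f4 was 28.4, 22.5, 6.28, 10.6 and 10.8 CPM, so both were highest in replicates 1 and 2, as the interferon genes were. In Glenn excess libraries Cyp2f4 ranged from 2.56 to 23.4 CPM, with the highest value in replicate 5. The part of these cells in the other results was not tested.

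Alveolar type 1 markers had 7 of 8 negative differences with a median of -0.44 and 0 at an unadjusted p under 0.05. After Glenn surgery 5 of 8 rose on the deficient diet (13.7% of all genes), among them Ager (1.07) and Aqp5 (1.12). On the excess diet 1 rose, Pdpn, and 2 fell (11.6% and 10.4% of all genes). Pdpn was also listed as a lymphatic endothelial marker, so its rise is not particular to alveolar type 1 cells. Platelet markers had 7 of 7 negative differences with a median of -0.51 (-0.93 without Glenn excess replicate 2) and 0 at an unadjusted p under 0.05. Gp9, a platelet adhesion receptor subunit, fell on both diets, by 1.96 on the excess and 1.08 on the deficient diet (log2). Summed erythroid markers ranged from 8.12 to 197 CPM in Glenn deficient and from 8.68 to 32.9 CPM in Glenn excess libraries, against 5.79 to 14.6 CPM after sham surgery. Lymphocyte and neutrophil markers stayed at sums of at most 13.2 and 9.81 CPM in the 4 groups. Macrophage and monocyte markers, in contrast, summed to 14100 to 22800 CPM in sham deficient and 8190 to 13800 CPM in Glenn deficient libraries. On the excess diet the sums were 15700 to 21600 CPM after sham and 9580 to 14600 CPM after Glenn surgery. A sum follows the most abundant markers, and the mean log2(CPM + 1) over the 9 macrophage and monocyte markers did not fall. It was 4.03 after sham and 4.06 after Glenn surgery on the deficient diet, and 4.06 and 4.09 on the excess diet. Mural markers rose in 10 of 10 members on both diets. Fibroblast markers rose in 2 of 10 on the excess and 6 of 10 on the deficient diet (11.6% and 13.7% of all genes).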
